A study of Homo sapiens with 8 samples.

Results

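The collagen genes were followed in SK-UT-1 cells, an established human uterine leiomyosarcoma (uLMS) line, after exposure to TP-472. Members were chosen by name alone: every gene whose symbol is COL, a number, A and a number, the naming pattern of collagen alpha chains. Of 60282 genes in the table, 44 carried such a name. A total of 23 of them had more than 1 CPM (counts scaled to the library total) in 4 or more of the 8 libraries and were tested, and the other 21 were too low to test. Levels below are CPM with the library total further scaled by edgeR's TMM method, so a level close to 1 can lie on the other side of the filter. TP-472 is a small-molecule inhibitor of the bromodomain proteins BRD9 and BRD7, which are subunits of SWI/SNF chromatin remodelling complexes. The treated group received TP-472 at 5 µM for 48 h and the vehicle group received DMSO, the solvent, with 4 RNA-seq libraries in each group. Both groups are a single tumour line grown as a monoculture, so they hold no stroma and no second line against which to compare. The study's methods call the replicates of its experiments in general biological, and the labels of these libraries number them but do not name separate cultures. The p-values below measure the spread between these libraries.

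Collagens are the main structural proteins of the extracellular matrix. Each is built from alpha chains that wind into a triple helix in the endoplasmic reticulum, where prolines and lysines are hydroxylated. The procollagen is then exported, trimmed and crosslinked outside the cell. Fibrillar collagens form banded fibrils, fibril-associated collagens sit on their surface, beaded-filament and network-forming collagens make microfibrils and basement membranes, and transmembrane collagens span the cell surface. Smooth muscle of the uterine wall, the tissue from which leiomyosarcoma arises, is surrounded by fibrillar collagen of types I, III and V and by a basement membrane with type IV collagen.

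Most of the tested collagen genes were lower with TP-472. Of the 23 tested genes, 17 fell (73.9%), against 14.9% of all 14073 genes tested, and 2 rose (8.70%), against 12.0% of all genes. Counting both directions, 19 genes changed (82.6%), against 26.9% of all genes. A gene is said to have fallen or risen where edgeR's quasi-likelihood test gave a Benjamini-Hochberg adjusted p under 0.05 over all 14073 genes and the fold change exceeded 1.5. The largest decreases were those of COL21A1, COL5A1 and COL1A2, of 7.83-fold, 7.77-fold and 5.97-fold (8.76-fold, 4.23-fold and 5.68-fold without vehicle replicate 3, a library described below), and the 2 genes that rose were COL12A1 and COL2A1. COL2A1 passed the filter only through TP-472, and COL8A2, among those that fell, only through vehicle, so both had to differ. The summed level of the 44 genes was 4117 ± 616 CPM in vehicle and 1519 ± 46.0 in TP-472 (mean ± SD, n = 4 each), 2.71-fold lower. In bulk RNA from one line, fewer cells that express a gene and less RNA per cell cannot be told apart.

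One library stood apart before any collagen was considered, and it bears on most of the values. In order of replicate number, the vehicle libraries held 34433596, 36634184, 32574716 and 36407850 counts and the TP-472 libraries 38545695, 37674588, 37427131 and 36246466, so depth was similar. Values are given in this order throughout. Yet the median Spearman correlation of vehicle replicate 3 with its own group, across genes, was 0.914, whereas that of every other library was between 0.988 and 0.997. Genes above the upper quartile of GC content (the share of G and C bases in the longest transcript, 56.6%) were raised in vehicle replicate 3 by a mean of 0.867 log2 units relative to their mean over libraries, and those below the lower quartile (42.2%) deviated by −0.587. In the other libraries these means lay between −0.244 and −0.0081 for the GC-rich genes and between 0.048 and 0.159 for the GC-poor genes. Counts of genes that fell or rose with edgeR are therefore also given without vehicle replicate 3 wherever they differ.

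Collagen transcripts are GC-rich, as are the codons of glycine and proline, the residues that fill the triple helix. Their median GC content was 61.1% (range 44.5% to 67.4%, 23 genes), against 48.5% for all genes. Across the 23 collagen genes the deviation of vehicle replicate 3 from the median of the other vehicle libraries rose with GC content, with Pearson's r of 0.82 and Spearman's rho of 0.77. Across 13970 genes with a known GC content r was 0.72 and rho was 0.75. These are descriptions across genes of the same 4 libraries, and genes are not independent replicates. The 14 collagen genes at or above 58% GC stood in vehicle replicate 3 at 1.73 to 4.42 times the mean of the other vehicle libraries, and the 9 below that limit at 0.588 to 1.88 times. What set this library apart was not tested.

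**Figure D1:**
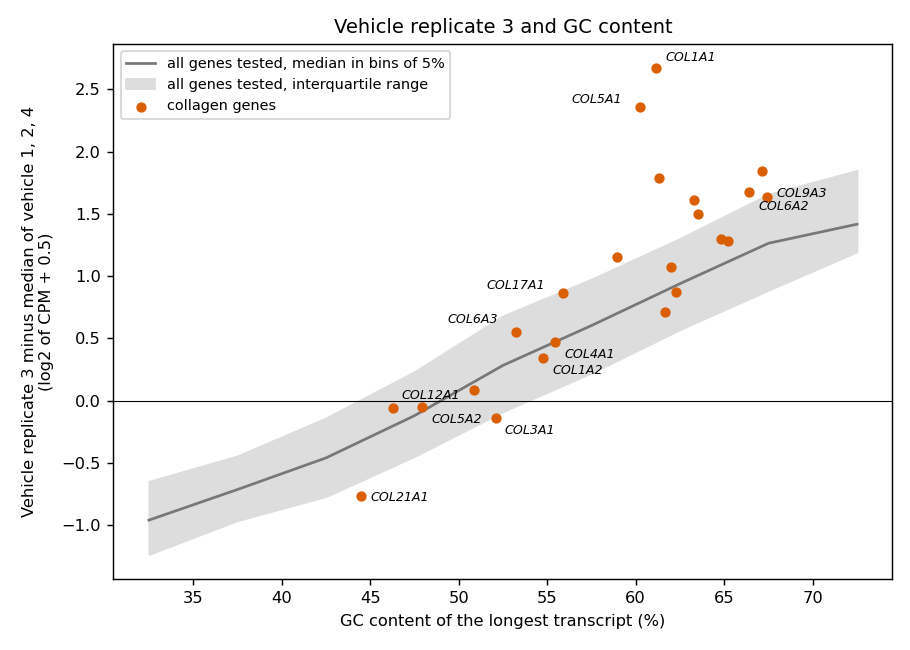
Deviation of vehicle replicate 3 from the median of the other 3 vehicle libraries (log2 of CPM plus 0.5, vertical axis) against the GC content of the longest transcript (percent, horizontal axis). Points are the 23 tested collagen genes, the line is the median of all tested genes with a known GC content in bins of 5%, and the band is their interquartile range. COL1A1 and COL5A1 lie farthest above the line and COL21A1 is the lowest point.

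Without vehicle replicate 3, 16 of the 22 collagen genes that could then be tested fell (72.7%), against 13.1% of all genes, and 3 rose (13.6%), against 12.0%. The 16 were the earlier 17 less COL8A2, which was then under the filter, and the additional gene that rose was COL7A1. A fit in which each library's trend with GC content was removed gave 17 lower, against 14.9% of all genes, and 3 higher, against 13.3%. The median log2 fold change of the tested collagen genes was −1.35 with all libraries and −0.94 without vehicle replicate 3, beside −0.026 and −1.15e-05 for all genes tested, and 4.48% of all genes lay at or below the collagen median (5.21% without vehicle replicate 3). A log2 fold change below −1 was found for 16 collagen genes (69.6%) and for 8.83% of all genes, and without vehicle replicate 3 for 11 of 22 (50%) and 4.37%. In 16 of the 23, every TP-472 library was lower than every vehicle library, which held for 21.6% of all genes, and in 2 every TP-472 library was higher, which held for 23.8%. Some genes entered the test through 1 group only: COL8A2 was above 1 CPM in 4 vehicle and 0 TP-472 libraries and COL2A1 in 0 and 4, and such a gene had to differ. COL9A3 was above it in 4 and 1. Among the 19 genes above 1 CPM in all 8 libraries, 15 fell and 1 rose, beside 14.3% lower and 10.5% higher of all 12755 genes above 1 CPM in all 8 libraries. The counts were 15 and 2 without vehicle replicate 3, beside 12.9% and 9.67%.

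**Figure D2:**
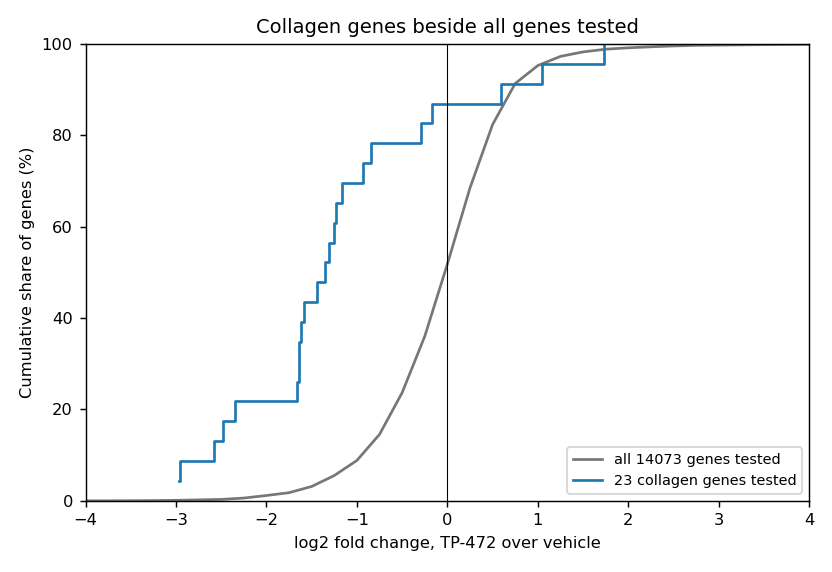
Cumulative share of genes (percent, vertical axis) by log2 fold change of TP-472 over vehicle (horizontal axis), for the 23 tested collagen genes (blue steps) and all 14073 tested genes (grey line). The collagen steps run to the left of the grey line over most of the axis, with a median of −1.35 against −0.026.

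Per kilobase of exon, the most abundant collagen mRNA in vehicle was COL5A2, at 171 ± 15.5 CPM per kilobase (SD, n = 4). COL3A1 at 67.2 ± 4.95, COL6A3 at 58.8 ± 12.1 and COL1A2 at 52.8 ± 6.93 followed. With vehicle replicate 3 included, neighbours among these 3 differed by less than the larger of their SDs. That library widened the spread of COL6A3, whose vehicle SD was 238 CPM with it and 51.3 CPM without it. COL6A2 at 26.6 ± 19.1 and COL6A1 at 15.9 ± 9.66 came next, and every other tested collagen was at 4.96 or less. Without vehicle replicate 3, COL5A2 was at 171, COL3A1 at 68.1, COL6A3 at 52.8 and COL1A2 at 50.1. COL6A2 was then at 17.1 and COL6A1 at 11.1, and every other tested collagen was at 5.17 or less. The lengths count every exon of every GENCODE 29 transcript once, so a gene with many long alternative exons is understated. With TP-472 the order was COL5A2 at 66.9 ± 3.75, COL6A3 at 23.6 ± 1.28, COL3A1 at 21.9 ± 1.47, COL1A2 at 8.85 ± 0.433, COL6A2 at 8.56 ± 0.769 and COL12A1 at 6.09 ± 0.746, which in vehicle had held 2.96 ± 0.232. In that order COL1A2 and COL6A2 differed by less than the SD of either, whereas COL6A3 exceeded COL3A1 by more than the SD of either.

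COL5A2, COL6A3, COL1A2 and COL3A1 together made up 77.5% to 88.3% of the summed collagen CPM in the vehicle libraries and 79.2% to 80.3% in the TP-472 libraries. Library by library the sums were 3762, 3822, 5039 and 3844 CPM in vehicle and 1577, 1536, 1484 and 1480 in TP-472. Vehicle replicate 3 was the highest and the groups did not overlap. As a share of all counts the collagen genes took 0.394%, 0.363%, 0.534% and 0.376% in vehicle and 0.158%, 0.145%, 0.143% and 0.155% in TP-472. Without vehicle replicate 3 the sum was 2.51-fold lower with TP-472.

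**Figure D3:**
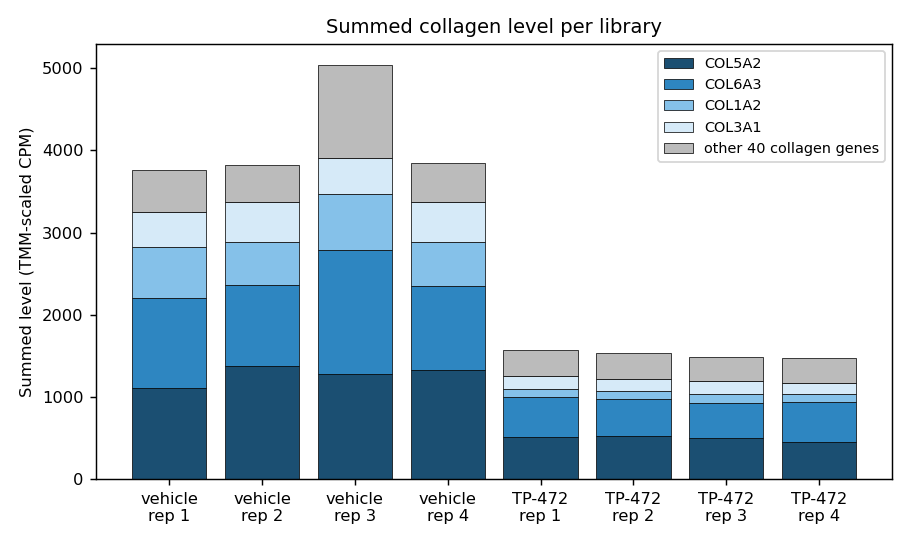
Summed level of the 44 collagen genes in each library (TMM-scaled CPM, axis from 0), with the 4 most abundant genes as blue segments and the other 40 in grey. The 4 TP-472 bars reach 1480 to 1577 and the vehicle bars 3762 to 5039, and the grey segment is largest in vehicle replicate 3.

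The fibrillar class gave 8 tested genes of 11, of which 5 fell and 1 rose, with a median log2 fold change of −1.49 (−1.41 without vehicle replicate 3). COL1A2, which encodes the alpha-2 chain of type I collagen, the main fibril collagen of most connective tissue, lies at chr7:94394561-94431232 (GRCh38, GENCODE 29). Its levels were 626, 516, 680 and 535 CPM in the vehicle libraries and 102, 92.2, 103 and 98.3 in those with TP-472. The groups were far apart and the spread within each was small. It fell 5.97-fold (log2 fold change −2.58 ± 0.125, standard error; adjusted p = 1.74e-05), and by −2.51 without vehicle replicate 3.

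COL1A1, the alpha-1 chain that pairs with COL1A2, was far scarcer and far more variable, at 9.25, 3.02, 21.9 and 2.59 CPM in vehicle and 2.07, 1.75, 1.30 and 2.09 in TP-472. Vehicle replicates 1 and 3 were the high ones, and the lowest vehicle library was just above the highest TP-472 library. Its log2 change came to −2.35 ± 0.649 (edgeR adjusted p = 0.0222), but to −1.46 ± 0.420 without vehicle replicate 3 (adjusted p = 0.0143). The call was lost with limma-voom (−1.82, adjusted p = 0.0674), with a replicate block (−1.80, adjusted p = 0.0734) and without any 1 of the TP-472 libraries (−2.42 to −2.21, adjusted p = 0.0554 to 0.070). Per kilobase, the COL1A2 level was 27.4 to 182 times the COL1A1 level in the vehicle libraries and 41.4 to 69.6 times in the TP-472 libraries. This ratio did not differ between the groups beyond its spread (log2 ratio of COL1A1 to COL1A2 higher by 0.95 with TP-472, exact two-sided permutation p = 0.229, adjusted over 6 chain pairs 0.343), and with 1 library left out the difference ran from 0.60 (without vehicle replicate 4) to 1.44 (without vehicle replicate 3).

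COL3A1, whose chain forms the homotrimer of type III collagen in distensible tissues such as the uterus and vessel walls, stood at 420, 490, 439 and 483 CPM in vehicle and 154, 153, 154 and 134 in TP-472. Neither group had a library near the other. It fell 3.08-fold (−1.62 ± 0.106, adjusted p = 3.97e-05), and without vehicle replicate 3 the log2 fold change was −1.65. COL3A1 at chr2:188974320-189012746 and COL5A2 at chr2:189031896-189225312 are neighbours on opposite strands, 19149 bases apart.

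COL5A2 encodes a chain of type V collagen, which is incorporated within type I fibrils and limits their diameter. By the mean of each group it was the most abundant collagen, with 1111, 1378, 1279 and 1325 CPM in vehicle and 511, 523, 502 and 459 in TP-472. COL6A3 was above it in vehicle replicate 3 (1505 CPM) and in TP-472 replicate 4 (481 CPM). For COL5A2, vehicle replicate 3 lay within the range of its group, and the groups did not overlap. The change was 2.55-fold (−1.35 ± 0.114, adjusted p = 1.07e-04) and −1.35 without vehicle replicate 3 as well. Its partner chain COL5A1 stood at 35.4, 20.8, 113 and 21.7 CPM in vehicle and 6.26, 6.26, 5.16 and 6.95 in TP-472. Here vehicle replicate 3 was several times the other vehicle libraries, and vehicle replicate 1, at 35.4, was also above the remaining ones (20.8 and 21.7). All 4 vehicle libraries were above all TP-472 libraries. Its log2 change came to −2.96 ± 0.549 (adjusted p = 0.00406), and to −2.08 ± 0.190 without vehicle replicate 3 (adjusted p = 2.21e-05). Per kilobase COL5A2 exceeded COL5A1 by 16.9 to 99.4 times in vehicle and 99.1 to 146 times in TP-472. The log2 ratio of COL5A1 to COL5A2 differed by −1.15 (TP-472 minus vehicle) and overlapped between groups (exact permutation p = 0.0571, adjusted 0.257), and the difference was −0.61 without vehicle replicate 3.

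COL2A1, the chain of cartilage type II collagen, was the one fibrillar gene that rose. It is near the limit of detection, with 7, 7, 27 and 12 counts in vehicle and 54, 44, 42 and 47 in TP-472, or 0.19, 0.20, 0.78 and 0.34 CPM against 1.4, 1.24, 1.17 and 1.24. All TP-472 libraries were above all vehicle libraries, and vehicle replicate 3 was the nearest. The gene passed the filter only through TP-472 and so had to differ, and neither this separation nor the p-value below supports a rise. For COL2A1 the values are a description. Its log2 change came to 1.73 ± 0.402 (adjusted p = 0.0109), and to 2.35 without vehicle replicate 3. Without any 1 of the TP-472 libraries, or with a filter of 5 CPM, it was under the filter and not tested. COL11A2, a cartilage type XI chain, ranged from 0.98 to 4.08 CPM in vehicle and 1.03 to 2.09 in TP-472, a log2 difference of −0.30 (adjusted p = 0.633). Without vehicle replicate 3, the library at 4.08, the difference was 0.33 (adjusted p = 0.37), and after GC correction 0.26 (adjusted p = 0.479). COL27A1, another cartilage-associated fibrillar collagen, ranged from 11.7 to 45.0 in vehicle and 10.0 to 13.1 in TP-472. Its log2 fold change was −0.84 ± 0.413 (adjusted p = 0.136), and −0.17 (adjusted p = 0.258) without vehicle replicate 3, the library at 45.0.

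**Figure D4:**
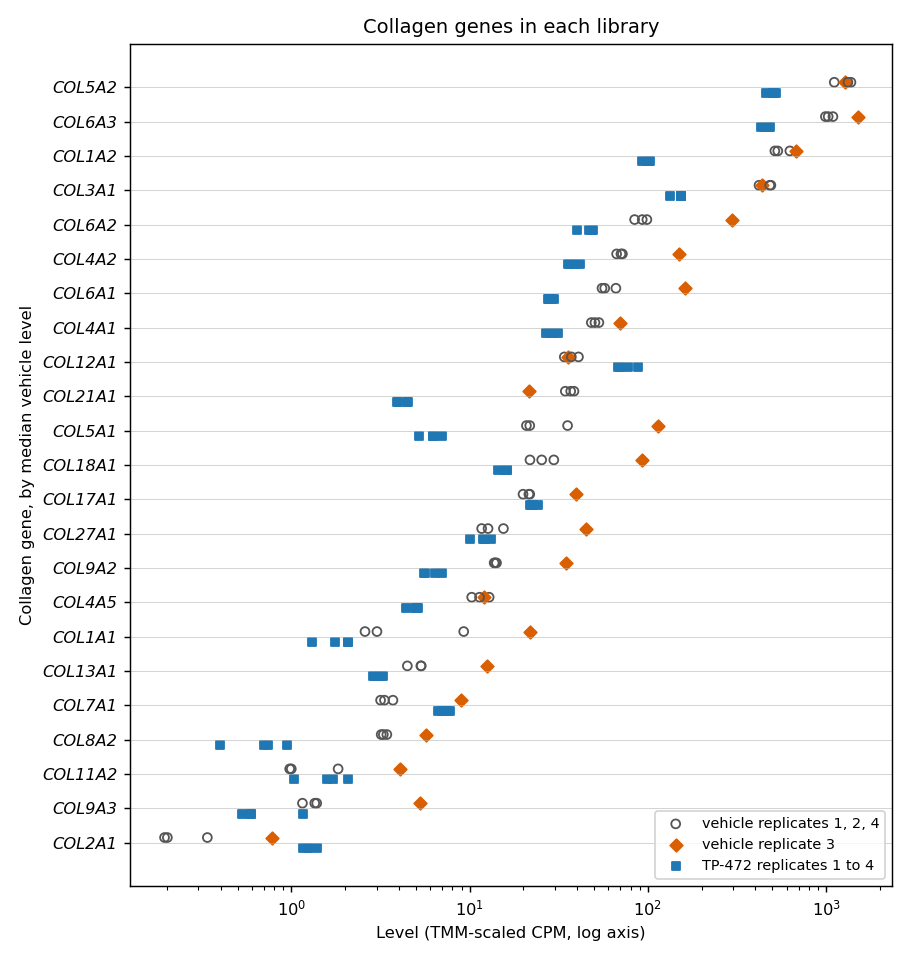
Level of each of the 23 tested collagen genes in each library (TMM-scaled CPM, log axis), ordered by median vehicle level. Open circles are vehicle replicates 1, 2 and 4, orange diamonds vehicle replicate 3 and blue squares the 4 TP-472 replicates. COL1A2 at 92.2 to 103 CPM in TP-472 is set well to the left of its vehicle libraries, COL12A1 lies to the right of its own, and the diamond is the highest vehicle value for most genes.

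Beaded-filament collagen of type VI, a microfibril that links cells to the surrounding matrix, had 3 tested genes of 5, and each fell. COL6A3 was the most abundant of these 3 by CPM, at 1092, 990, 1505 and 1027 in vehicle and 487, 456, 432 and 481 in TP-472. The groups did not overlap, and the change was 2.49-fold (−1.31 ± 0.153, adjusted p = 4.66e-04). COL6A1 had 66.1, 57.2, 162 and 55.2 CPM in vehicle against 28.7, 29.8, 27.9 and 27.5 in TP-472. COL6A2 had 98.7, 84.2, 297 and 92.9 against 49.2, 48.4, 46.9 and 40.1. In both, the TP-472 libraries agreed closely and vehicle replicate 3 was 1 high value above 3 similar ones. The log2 fold changes were −1.58 ± 0.337 for COL6A1 (adjusted p = 0.00753) and −1.64 ± 0.396 for COL6A2 (adjusted p = 0.0129). Without vehicle replicate 3 they were −1.07 and −1.0, with smaller adjusted p of 5.04e-06 and 1.54e-05, and COL6A3 was at −1.16.

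The 3 chains of type VI collagen assemble together, and their ratios did not differ detectably between the groups. The log2 ratio of COL6A1 to COL6A2 was −0.69 ± 0.151 in vehicle and −0.68 ± 0.103 in TP-472 (exact permutation p = 0.971). That of COL6A1 to COL6A3 was −3.89 ± 0.457 and −4.0 ± 0.0956 (exact permutation p = 0.886). Both overlapped between groups, both adjusted p-values over the 6 pairs were 0.971, and neither p shows that the ratios were equal. The COL6A1 and COL6A2 genes lie 93046 bases apart on chromosome 21, on the same strand.

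Basement membrane collagen of type IV forms a sheet-like network under epithelia and around smooth muscle cells. Of its 6 genes 3 were tested and 3 fell, with a median of −1.23 (−0.87 without vehicle replicate 3). COL4A1 and COL4A2, the chains of the common network, start side by side on chromosome 13 and are transcribed away from each other. Their GENCODE 29 models overlap by 1422 bases on opposite strands. The sources differ on whether the libraries kept strand, so reads in the overlap could be shared. The stretch between the RefSeq starts of both genes, chr13:110307158-110307283 (RefSeq, GRCh38.p14, plus strand, the direction of COL4A2), is shown because the pair share it and fell together. Of its 126 bases 80.2% are G or C, and capitals mark the 1 CCAAT and 1 GGGCGG it holds when both strands are searched.
COL4A1-COL4A2: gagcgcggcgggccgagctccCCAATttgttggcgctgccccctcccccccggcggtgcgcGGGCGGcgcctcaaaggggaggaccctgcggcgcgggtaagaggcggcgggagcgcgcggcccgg
Neither motif overlaps the other. Within 250 bases before the start, CCAAT occurs in 32.0% and GGGCGG in 42.6% of 35116 RefSeq promoters on either strand. Of the tested collagen genes 16 have a promoter entry, and 4 of these hold CCAAT (COL4A1, COL4A2, COL4A5 and COL17A1) and 11 hold GGGCGG. A match describes letters in the window and is not evidence of a bound site.

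COL4A1 stood at 48.1, 50.4, 70.1 and 53.1 CPM in vehicle and 31.3, 29.8, 28.3 and 26.7 in TP-472, and COL4A2 at 70.5, 66.7, 149 and 71.9 against 41.6, 39.2, 35.5 and 36.6. No library of one group lay within the range of the other for either gene. The log2 fold changes were −0.93 ± 0.138 (adjusted p = 0.00145) and −1.23 ± 0.256 (adjusted p = 0.00688), and without vehicle replicate 3 they came to −0.81 and −0.87. Per kilobase the COL4A2 level was 1.01 to 1.62 times that of COL4A1 in vehicle and 0.959 to 1.05 times in TP-472. The log2 ratio did not differ beyond its spread (0.22, exact permutation p = 0.171, adjusted 0.343, and 0.069 without vehicle replicate 3). COL4A5, an X-linked chain of specialised basement membranes, had 12.9, 10.3, 12.1 and 11.4 CPM in vehicle and 5.07, 5.13, 4.38 and 4.94 in TP-472. Its log2 fold change was −1.25 ± 0.130 (adjusted p = 2.79e-04), and vehicle replicate 3 was inside its group's range.

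Fibril-associated collagens (FACIT) held the gene with the largest decrease and 1 of the 2 genes that rose. Of 10 genes 4 were tested, 3 fell and 1 rose. COL21A1, a minor FACIT of vessel walls and other smooth-muscle-rich tissue at chr6:56056590-56394094, stood at 34.4, 38.5, 21.5 and 36.9 CPM in vehicle and 4.48, 4.43, 3.91 and 3.94 in TP-472. It is the least GC-rich of the tested collagens and the one gene among those that fell in which vehicle replicate 3 was well below its group. The decrease was 7.83-fold (−2.97 ± 0.198, adjusted p = 3.97e-05) and 8.76-fold without vehicle replicate 3.

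COL12A1, which decorates type I fibrils and is found where tissue bears tension, rose. Its promoter window, 250 bases before the RefSeq start at chr6:75206054-75206303 (GRCh38.p14, minus strand, the direction of the gene), is printed because COL12A1 was the one collagen above 5 CPM that rose with all 8 libraries. Capitals mark its 1 GC box, GGGCGG, read here from the other strand as CCGCCC, and it holds 0 CCAAT on either strand.
COL12A1: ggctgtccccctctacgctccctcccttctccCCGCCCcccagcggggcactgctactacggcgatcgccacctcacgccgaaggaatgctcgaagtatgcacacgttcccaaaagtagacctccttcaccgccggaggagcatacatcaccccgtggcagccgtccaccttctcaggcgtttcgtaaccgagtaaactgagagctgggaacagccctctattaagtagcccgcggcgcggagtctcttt
Its levels were 40.8, 33.9, 35.7 and 37.2 CPM in vehicle and 77.7, 69.7, 68.1 and 88.5 in TP-472. The groups did not overlap and vehicle replicate 3 lay within its group. The rise was 2.06-fold (1.04 ± 0.118, adjusted p = 4.28e-04), and 2.03-fold without vehicle replicate 3.

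COL9A2 and COL9A3, chains of type IX collagen, which coats cartilage fibrils, were low. COL9A2 had 13.7, 14.1, 34.6 and 13.9 CPM in vehicle and 6.39, 6.96, 5.63 and 5.57 in TP-472, changing by −1.63 ± 0.317 on the log2 scale (adjusted p = 0.00496). Without vehicle replicate 3, the high library, it was −1.19. COL9A3 had 1.39, 1.35, 5.24 and 1.15 CPM in vehicle against 0.60, 0.59, 1.17 and 0.53 in TP-472. TP-472 replicate 3 lay within the vehicle range, and COL9A3 was the one gene that fell although its groups overlapped (−1.66 ± 0.545, edgeR adjusted p = 0.0407). Without vehicle replicate 3 it was at −0.85 (adjusted p = 0.0277). The call was lost with limma-voom (−1.41, adjusted p = 0.0592), without vehicle replicate 1 (−1.85, 0.0504) and without any 1 of the TP-472 libraries (−1.98 to −1.53, 0.0509 to 0.106). The gene shares sequence with TCFL5 on the opposite strand, which averaged 22.98 CPM. The log2 ratio of COL9A2 to COL9A3 differed by −0.44 (exact permutation p = 0.0857, adjusted 0.257). This value was −0.24 without TP-472 replicate 3, −0.19 with a pseudocount of 0.1 and −0.70 with a pseudocount of 2.

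The remaining classes had few tested members. COL18A1, a multiplexin of basement membranes and the precursor of endostatin, stood at 29.6, 21.8, 92.5 and 25.3 CPM in vehicle and 16.2, 16.2, 15.6 and 14.4 in TP-472. The groups did not overlap, but the log2 fold change of −1.44 ± 0.434 (adjusted p = 0.0305) came to −0.72 ± 0.106 (adjusted p = 3.58e-04) without vehicle replicate 3. The adjusted p was above 0.05 with limma-voom (−1.17, adjusted p = 0.0532), with a replicate block (−1.15, 0.0537) and without any 1 of the TP-472 libraries (−1.46 to −1.39, 0.0728 to 0.0802). It overlaps SLC19A1 on the opposite strand, which averaged 17.4 CPM. COL8A2, a short-chain collagen of hexagonal networks, had 3.19, 3.28, 5.70 and 3.43 CPM in vehicle and 0.70, 0.39, 0.94 and 0.74 in TP-472 (−2.48 ± 0.306, adjusted p = 6.59e-04). All TP-472 libraries were under the 1 CPM limit, so the gene passed the filter only through vehicle and had to differ. Without any 1 of the vehicle libraries, or with a filter of 5 CPM, it was not tested.

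Of 4 transmembrane collagens, whose chains span the cell membrane, 2 were tested and 1 fell. COL13A1, found at neuromuscular junctions, stood at 5.32, 5.35, 12.5 and 4.47 CPM in vehicle and 3.18, 2.87, 2.94 and 3.28 in TP-472. The groups did not overlap (−1.17 ± 0.319, adjusted p = 0.0210, and −0.72 without vehicle replicate 3), but without any 1 of the TP-472 libraries the adjusted p was 0.0516 to 0.0642 (−1.19 to −1.13). COL17A1, of epithelial hemidesmosomes, ranged from 19.9 to 39.5 CPM in vehicle and 21.9 to 24.3 in TP-472, a log2 difference of −0.17 (adjusted p = 0.553) that was 0.11 (adjusted p = 0.21) without vehicle replicate 3. COL7A1, the collagen of the anchoring fibrils of skin, had 3.32, 3.16, 8.89 and 3.71 CPM in vehicle and 7.45, 7.75, 6.60 and 6.97 in TP-472. Vehicle replicate 3 alone was above the TP-472 libraries, and the other 3 vehicle libraries were below them all. The log2 difference was 0.59 ± 0.326 (adjusted p = 0.177) with all libraries, 1.08 ± 0.116 (adjusted p = 5.81e-05) without vehicle replicate 3, and 1.16 after GC correction.

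**Figure D5:**
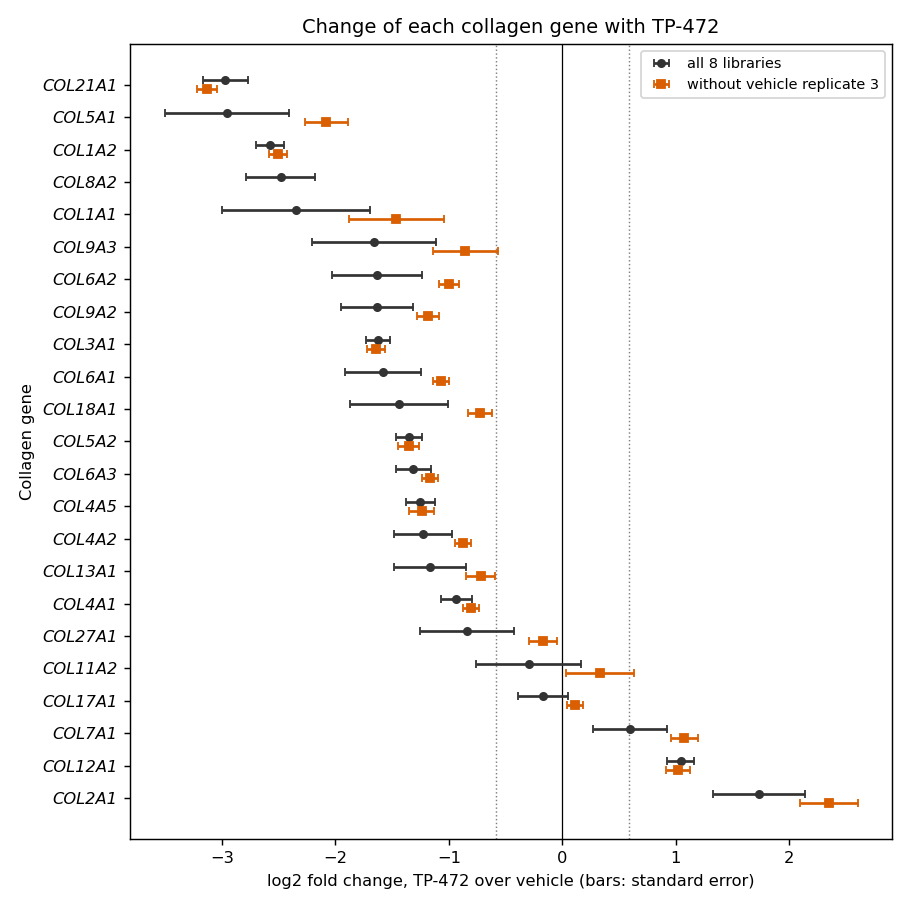
Log2 fold change of TP-472 over vehicle for each tested collagen gene, with bars of 1 standard error from the edgeR fit, for all 8 libraries (black circles) and without vehicle replicate 3 (orange squares). Dotted lines mark a 1.5-fold change. The squares lie nearer to 0 than the circles for COL5A1, COL1A1, COL6A2 and COL18A1, and COL7A1 passes the right-hand line clearly only as a square. COL8A2 has no square because it was then under the filter.

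The 21 collagen genes under the filter had at most 53 counts in any library, 14 had at most 10 and 9 had at most 3. In 5 of them the groups did not overlap, 3 higher and 2 lower with TP-472. That held for 7.02% (higher) and 3.08% (lower) of the 19119 genes under the filter with a count in at least 1 library, many of them with fewer counts, and for 23.8% and 21.6% of the genes tested. Each of the 5 had an exact two-sided permutation p of 0.0286, the smallest that 4 against 4 can give, and it is not adjusted for the 21 genes compared. COL20A1 had 2, 0, 2 and 0 counts in vehicle and 10, 8, 6 and 17 in TP-472, and COL24A1 had 8, 11, 11 and 9 against 23, 30, 29 and 18. Both were higher in every TP-472 library, as was COL28A1 with 5 counts in all over vehicle and 20 over TP-472. COL26A1, with 148 and 80 counts, and COL23A1, with 69 and 13, were lower in every TP-472 library on the CPM scale. DESeq2, which filtered less strictly and tested 33 collagen genes, called 19 lower (against 12.5% of 23270 genes) and 4 higher (against 11.6%), adding these last 2 to the lower and COL20A1 and COL24A1 to the higher genes.

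The proteins that fold, export, trim and bind collagen were followed through lists written from general knowledge. The background shares for these counts are those given above for the same fit, 14.9% lower and 12.0% higher. Collagen folding and modification in the endoplasmic reticulum gave 19 tested genes of 19, with 6 lower, 1 higher and a median log2 fold change of −0.40 (also 6 and 1 without vehicle replicate 3, median −0.38). P3H3, a prolyl 3-hydroxylase family member, stood at 51.3, 47.5, 102 and 48.2 CPM in vehicle and 25.8, 24.8, 25.5 and 22.4 in TP-472 (−1.34, edgeR adjusted p = 0.00417). FKBP10, a prolyl isomerase that acts on procollagen, fell by 1.1 on the log2 scale (adjusted p = 0.0010), and SERPINH1, the collagen chaperone HSP47, by 1.0 (adjusted p = 0.00148). SERPINH1 had 300, 344, 462 and 342 CPM in vehicle and 181, 190, 196 and 160 in TP-472, without overlap. TMEM38B, an ion channel of the endoplasmic reticulum that is needed for normal collagen modification, rose by 1.11 (adjusted p = 0.0223). P4HB, the shared subunit of the prolyl 4-hydroxylases and the most abundant of the list, stood at 376, 382, 690 and 394 CPM in vehicle and 423, 436, 424 and 369 in TP-472 (−0.16, adjusted p = 0.563).

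Export of procollagen from the endoplasmic reticulum had 16 tested genes of 16, with a median of 0.11, and 1 met the limits of both adjusted p and fold. That gene was SEC24D, a coat protein of the carrier vesicles, which was lower at 71.7, 61.8, 68.5 and 60.6 CPM in vehicle against 39.5, 38.7, 39.3 and 43.2 (−0.71, adjusted p = 0.00118). SEC23A, the most abundant of the list, which pairs with SEC24 proteins, had 276, 325, 166 and 312 CPM against 212, 225, 215 and 213 (−0.32, adjusted p = 0.216). Vehicle replicate 3 was the lowest of its group for SEC23A. MIA2 (−0.45, adjusted p = 0.0102) had an adjusted p under 0.05 but stayed under the fold limit. The same held for STX18 (0.35, 0.0285), PDCD6 (0.32, 0.034) and SEC23B (0.39, 0.0359), which were higher with TP-472.

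Of the enzymes that trim and crosslink procollagen outside the cell, 8 of 13 were tested, 5 fell and 2 rose (4 and 2 without vehicle replicate 3). LOXL1, a lysyl oxidase, had 5.49, 4.57, 17.1 and 4.78 CPM in vehicle and 2.82, 2.65, 3.11 and 2.51 in TP-472 (−1.52, adjusted p = 0.0238, and −0.84 without vehicle replicate 3). ADAMTS2, which removes the amino-terminal propeptide, changed by −1.38 (adjusted p = 0.00517), and PCOLCE, which enhances removal of the carboxy-terminal propeptide, by −0.96 (adjusted p = 0.0492). PCOLCE was not called without vehicle replicate 3 (−0.53). PCOLCE2, the other enhancer of that cleavage, rose from 2.88, 3.16, 1.59 and 4.02 CPM to 6.16, 6.62, 5.94 and 5.50 (1.05, adjusted p = 0.0124), and TLL2, a tolloid-like protease, rose by 0.92 (adjusted p = 0.0123). LOXL2, the most abundant of the list, had 67.9, 49.8, 123 and 51.1 CPM against 44.6, 46.9, 43.9 and 47.4 (−0.67, adjusted p = 0.0788). LOX and LOXL4 were not tested, and both are named after their values were seen. LOX was higher in every TP-472 library, at 0.499, 0.374, 0.405 and 0.393 CPM in vehicle against 1.09, 0.930, 1.03 and 1.32. That held for 7.02% of the genes under the filter with a count. LOXL4, at 1.44, 1.12, 0.463 and 1.18 CPM against 0.569, 0.169, 0.222 and 0.423, overlapped between the groups.

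Among proteoglycans and glycoproteins that bind fibrils or basement membranes, 8 of 20 were tested, 5 fell and 1 rose, with and without vehicle replicate 3. HSPG2, the basement membrane proteoglycan perlecan, stood at 71.9, 31.3, 253 and 31.2 CPM in vehicle and 13.4, 11.8, 9.46 and 13.7 in TP-472. The groups did not overlap, but the vehicle libraries spread widely, and the log2 fold change of −3.0 (adjusted p = 0.00921) was −1.89 without vehicle replicate 3. FBLN1, or fibulin-1, changed by −1.77 (adjusted p = 0.00234) and TNXB, a tenascin that binds fibrils, by −1.40 (adjusted p = 0.0394), or −0.69 without vehicle replicate 3. SPARC, a collagen-binding glycoprotein and the most abundant of the list, was even within groups at 538, 574, 574 and 575 CPM against 319, 334, 331 and 315 (−0.80, adjusted p = 4.32e-04). FN1, which encodes fibronectin, rose by 1.16 (adjusted p = 0.00339) from 1.52, 1.21, 1.94 and 1.32 CPM to 3.05, 2.79, 3.58 and 3.94. The small leucine-rich proteoglycans DCN, LUM, BGN and FMOD were at 0 to 0.0277 CPM in every library.

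Collagen receptors had 5 tested genes of 10, with 3 lower and 1 higher (2 and 1 without vehicle replicate 3). MRC2, an endocytic receptor that takes up collagen, stood at 74.5, 62.9, 124 and 67.9 CPM in vehicle and 26.5, 25.5, 24.8 and 21.4 in TP-472 (−1.75, adjusted p = 6.85e-04). DDR2, a receptor tyrosine kinase activated by fibrillar collagen, had 384, 400, 284 and 388 CPM against 205, 195, 192 and 210 (−0.86, adjusted p = 0.00145). DDR1, its relative, changed by −0.72 (adjusted p = 0.0383) and was not called without vehicle replicate 3 (−0.44). ITGA10, an integrin chain that binds collagen, was below 0.3 CPM in vehicle, passed the filter only through TP-472, where it stood at 1.11 to 1.63, and so had to differ. It is the 1 gene counted as higher, and that count gives no support to a direction of the list. The integrin chains ITGA1 and ITGA2, named after their values were seen, were not tested but were higher in every TP-472 library. That held for 7.02% of the genes under the filter with a count. ITGA11, another untested collagen-binding chain, overlapped between the groups, with a lower mean in TP-472 (0.475 CPM in vehicle, 0.285 in TP-472). ITGA1 stood at 0.471, 0.230, 0.174 and 0.253 CPM in vehicle and 1.06, 1.55, 0.971 and 1.29 in TP-472, and ITGA2 at 0.139, 0.172, 0.0289 and 0.0281 against 1.68, 1.27, 1.03 and 1.24. ITGB1, the beta chain that partners the collagen-binding integrins and the most abundant of the list, had 1192, 1465, 624 and 1410 CPM against 1375, 1375, 1428 and 1436, a log2 difference of 0.26 (adjusted p = 0.410).

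CREB3L1 and CREB3L2, membrane-bound transcription factors known to activate collagen and secretory genes, both fell. CREB3L1 stood at 44.5, 16.7, 156 and 18.1 CPM in vehicle and 5.82, 4.68, 4.61 and 7.03 in TP-472 (−3.41 ± 0.718, adjusted p = 0.00714). Vehicle replicates 1 and 3 were its high libraries, as for COL1A1, and without vehicle replicate 3 the change was −2.26 (adjusted p = 3.70e-04). CREB3L2 had 56.0, 30.3, 65.6 and 28.9 CPM against 15.9, 16.5, 16.2 and 26.5 (−1.27, adjusted p = 0.0125). All vehicle libraries of both genes were above all TP-472 libraries.

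Markers of the labelled cell type and of other cells were read in the same libraries. Beside the counts of these marker lists, 14.9% of all genes tested fell and 12.0% rose. Without vehicle replicate 3 these shares were 13.1% and 12.0%. Of 10 smooth muscle markers 7 were tested and 3 fell, DES (−2.36), LMOD1 (−1.84) and TAGLN (−0.67), and 0 rose. DES and LMOD1 were above 1 CPM in vehicle only, so they passed the filter through that group and had to differ. Without vehicle replicate 3 neither was tested, and 2 of 5 tested markers fell, TAGLN (−0.65) and ACTA2 (−0.60). The smooth muscle myosin MYH11 and the regulator MYOCD, which define differentiated smooth muscle, were at or near 0 in all libraries (at most 0.264 and 0.211 CPM). CALD1, the most abundant of the list, stood at 178 to 211 CPM in vehicle and 185 to 198 in TP-472. MYH11 and SYNPO2, an actin-binding protein of muscle, were not tested but were higher in every TP-472 library, and both are named after their values were seen. That held for 7.02% of the genes under the filter with a count, and also for markers of other cells given below. MYH11 had 0, 0, 0 and 0.0281 CPM in vehicle and 0.259, 0.225, 0.194 and 0.264 in TP-472, and SYNPO2 had 0.111, 0.0862, 0.0579 and 0.112 against 0.207, 0.479, 0.666 and 0.502. The list summed to 439, 480, 524 and 481 CPM in vehicle and 380, 378, 374 and 371 in TP-472. Of 8 fibroblast markers 4 were tested and 1 fell, PDGFRB, the PDGF receptor of mesenchymal cells, at 13.8, 10.7, 22.4 and 10.5 CPM against 3.52, 2.62, 2.77 and 2.54 (−2.33, adjusted p = 4.46e-04). That list summed to 62.3, 66.6, 90.4 and 70.2 CPM in vehicle and 73.5, 76.4, 72.2 and 66.0 in TP-472, led by THY1, and its defining members DCN, LUM, PI16 and DPT were at 0 to 0.0528 CPM.

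None of 6 endothelial markers was tested, and their sum did not exceed 0.978 CPM in any library. Among them PECAM1, CDH5 and VWF were higher in every TP-472 library, though none exceeded 0.264 CPM. Of 6 leukocyte markers 1 passed the filter, the lysosomal protein CD68 (0.47, adjusted p = 0.0307, under the fold limit), which made up most of the sum of 7.15 to 8.54 CPM in vehicle and 9.83 to 13.05 in TP-472, while PTPRC was at 0 in 7 libraries and CD3E in all 8. Of 6 epithelial markers 3 were tested, KRT18 rose (1.08, adjusted p = 7.26e-04) and KRT19 fell (−0.85, adjusted p = 0.0151), and the sum was 18.2 to 24 CPM in vehicle and 21.1 to 27.8 in TP-472. EPCAM was below 1 CPM throughout and lower in every TP-472 library (0.632 to 0.840 CPM in vehicle, 0.207 to 0.310 in TP-472). That held for 3.08% of the genes under the filter with a count. The leukocyte marker CD14, also untested, was higher in every TP-472 library (0.450 to 0.724 against 0.751 to 0.999 CPM). PECAM1, CDH5, VWF, EPCAM and CD14 are named after their values were seen. The part of the smooth muscle and fibroblast markers that moved with the collagen genes was not tested.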

How the data were processed

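RNA of SK-UT-1 cells, 4 samples with TP-472 and 4 with vehicle, was sequenced. The values deposited by the authors are estimated counts: salmon (version 1.4.0 in the submitters' processing notes) estimated transcript abundance on GRCh38, and tximport summed it to genes of GENCODE release 34, without normalization or filter. The labels name a TruSeq RNA kit and the study's methods a strand-specific total RNA protocol, so strand is uncertain. All 8 columns were used, and 0 columns of other samples were present.

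Counts were rounded, and genes above 1 CPM of the unscaled library total in at least 4 of 8 libraries (14073) were kept. They were scaled by TMM and compared in edgeR 4.0.16 (R 4.3.3) by its quasi-likelihood test, with p-values adjusted over all of them and standard errors taken as the log2 fold change over the root of F. Single values and chain ratios (log2 of CPM plus 0.5) had an exact two-sided permutation test over 70 assignments, which cannot go below 0.0286. Summaries used Python 3.11.15. Coordinates, exon lengths and GC content (known for 99.3% of tested genes) came from GENCODE 29 on GRCh38, joined by identifier without version. Library totals ran from 32574716 to 38545695 counts. The calculations were tested on simulated data. The simulation gave all genes a common spread and had no outlying library and no GC trend, so it does not cover the conditions of vehicle replicate 3.

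The collagen genes and all lists were chosen with earlier results of these data known. Every tested collagen gene is named. From each list, up to 3 called genes in each direction by fold change and the most abundant gene are named, and further genes were named after their values were seen. Alternatives were DESeq2 1.42.0, limma-voom (3.58.1) with and without quality weights, other scalings, filters and thresholds, robust estimation, unrounded counts, a test against the fold limit (glmTreat), replicate number as a block and each library left out. GC correction was added after seeing the data.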

Additional observations from a re-analysis of the deposited data

Results flagged for a closer look

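For each tested collagen gene and for their sum, the libraries of each group were checked for 1 library far from the other 3 (its gap to the nearest, divided by the range, above Dixon's 95% limit for 4 values). Of 48 groups 15 had such a library, where chance gives about 1 in 20, and 13 of the 15 were vehicle replicate 3. In that library COL6A2 stood at 297 CPM, COL6A1 at 162, COL4A2 at 149, COL5A1 at 113 and COL18A1 at 92.5, each above the other vehicle libraries. Likewise COL27A1 was at 45.0 CPM, COL17A1 at 39.5, COL9A2 at 34.6, COL13A1 at 12.5, COL7A1 at 8.89, COL8A2 at 5.70 and COL9A3 at 5.24, and the collagen sum was at 5039. These genes share 1 library and its GC trend, so the 13 are not separate observations. With TP-472, COL3A1 was low in replicate 4 at 134 CPM (153 to 154 in the others), and COL9A3 was high in replicate 3 at 1.17 CPM (0.53 to 0.60 in the others).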

How the results depend on the processing

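With 17 collagen genes lower, 2 higher and 3789 genes called in the whole table, glmTreat left 11, 1 and 1123. The number of higher collagen genes was 4 with DESeq2, 4 with no filter and 1 with a filter of 5 CPM (which leaves out COL1A1, COL2A1, COL8A2, COL9A3, COL11A2 and COL13A1), and the other alternatives without a left-out library kept it within 1.5 times, as they kept the number of lower genes. Leaving out 1 library at a time gave 13 to 16 lower and 1 to 3 higher collagen genes and 2486 (without TP-472 replicate 3) to 4110 calls in the whole table. Of 5 pathway members higher and 22 lower, the higher became 9 with DESeq2, 8 with filterByExpr, with no filter or with no fold limit, 3 with a filter of 5 CPM and 2 with glmTreat, and 3 to 6 with a library left out, while the lower became 8 with glmTreat.

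COL17A1 (−0.17) reversed to 0.12 with quality weights and 0.024 with GC correction, and COL11A2 (−0.30) to 0.11 and 0.26. With a library left out COL17A1 ran from −0.28 to 0.11 and COL11A2 from −0.53 to 0.33. The difference in the log2 ratio of COL6A1 to COL6A2 (0.0028) was −0.0018 with a pseudocount of 0.1 and ran from −0.059 to 0.047 with a library left out, and that of COL6A1 to COL6A3 (−0.11) from −0.22 to 0.11. The reversed values at the positive or negative end of these ranges are those without vehicle replicate 3. The causes of these shifts were not tested.

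Some calls lost significance. COL1A1 and COL18A1 did so with limma-voom (adjusted p = 0.0674 and 0.0532), with the replicate block (0.0734 and 0.0537) and without any 1 of the TP-472 libraries, COL13A1 without any 1 of the TP-472 libraries (0.0516 to 0.0642), and COL9A3 with limma-voom (0.0592), without vehicle replicate 1 (0.0504) and without any 1 of the TP-472 libraries. The labels do not say whether same-numbered vehicle and TP-472 libraries were paired. Deviations of same-numbered libraries from their group means had correlations of −0.055, 0.116, −0.171 and −0.177. These cannot decide it, because the vehicle means include vehicle replicate 3. The replicate block gave 15 lower and 2 higher collagen genes and 3055 calls in the whole table. COL7A1 was called with quality weights, with GC correction and without vehicle replicate 3. Without that library the fold of a called gene moved by over 1.5 times for COL5A1 (7.77-fold to 4.23-fold lower), COL1A1 (5.08 to 2.75), COL9A3 (3.16 to 1.81), COL6A2 (3.11 to 2.0), COL18A1 (2.72 to 1.65) and COL2A1 (3.32-fold to 5.09-fold higher). Quality weights moved the log2 fold change as far for COL1A1 (−2.35 to −0.75), COL5A1 (−2.96 to −1.88), COL6A1 (−1.58 to −0.98), COL6A2 (−1.64 to −0.93), COL9A3 (−1.66 to −0.80) and COL18A1 (−1.44 to −0.62), and GC correction for COL6A2 (−0.97), COL9A3 (−0.93) and COL18A1 (−0.72), and all of these stayed called. Depth limits the 21 collagen genes under the filter, in which differences of a few counts could not be resolved.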
